A study of Homo sapiens with 15 samples.

Results

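The genes described here are 48 human genes of the lysosome, taken by name from the deposited count table and not by any measured value. They comprise 13 cathepsins and other lysosomal peptidases, 13 hydrolases of glycans and glycosaminoglycans, 9 proteins of lipid breakdown and sterol transport, 6 proteins of the lysosomal membrane, 4 subunits of the proton pump and 3 transcription factors. All 48 had a row among the 57736 genes of the table, and all 48 were among the 15994 genes that passed the filter on low counts and were tested.

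RNA was sequenced from IMR90 cells, a much used human line of lung fibroblasts, in 5 groups of 3 libraries, in a study of TXNRD1 in senescent cells. TXNRD1 is the cytosolic thioredoxin reductase. Senescent cells carried a short hairpin against TXNRD1 (shTXNRD1) or were in a control condition (senescent control). Further senescent cells were treated with Tri-1, a small molecule that inhibits thioredoxin reductase, or with its solvent DMSO, and growing cells in a control condition (growing control) were the only cells that were not senescent. The labels name 1 hairpin condition, and do not say how senescence was brought about, what the hairpin's control carried, or the dose and time of Tri-1. They number the replicates without saying whether these were separate cultures, so p-values measure the spread between these samples, which may be technical.

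Lysosomes are acidic compartments in which hydrolases break down proteins, glycans and lipids that arrive by endocytosis and autophagy. A proton pump, the V-ATPase, keeps them acidic, and membrane proteins such as LAMP1 form a glycosylated lining. Many of these genes are targets of the transcription factors TFEB, TFE3 and MITF, which bind E-box sequences called CLEAR elements and are held in the cytosol by mTORC1 when nutrients are plentiful. Senescent fibroblasts are known for an enlarged lysosomal compartment, and the stain most used to find them, senescence-associated beta-galactosidase, reads the activity of the GLB1 product.

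Levels are CPM, a gene's share of the TMM-scaled library total, and changes are log2 fold changes ± SE from edgeR's quasi-likelihood test with p-values adjusted by Benjamini-Hochberg over all genes tested. A gene is said to be called, or to rise or fall, where that adjusted p was under 0.05. Libraries held 18033076 to 28909046 counts. TXNRD1 itself was at 22.6 ± 2.295 CPM in shTXNRD1 cells and 515 ± 12.02 CPM in senescent control (SD, n = 3 each), a fall of 22.7-fold, and at 431 ± 11.6 CPM with Tri-1 and 408 ± 19.3 CPM with DMSO (SD, n = 3 each). All 10 fibroblast markers averaged 1 CPM or more in every group, and none of 11 leukocyte markers did. The leukocyte markers summed to 0.833 to 2.88 CPM over the libraries. By group, 1 to 4 of 6 endothelial markers reached 1 CPM, 1 to 2 of 6 epithelial, and 1 to 2 of 6 melanocyte and osteoclast markers. The endothelial TEK averaged 50.7 to 161 CPM over the groups. KDR averaged 8.24 CPM with the hairpin and 0.471 CPM in senescent control, and the melanocyte gene PMEL 13.8 and 4.77 CPM. The other endothelial markers went the other way. With the hairpin and in senescent control TEK averaged 109 and 161 CPM, TIE1 0.842 and 2.38 CPM and CLDN5 0.0312 and 1.5 CPM. VWF averaged 0.108 and 0.497 CPM and CDH5 0.172 and 0.343 CPM. The osteoclast gene DCSTAMP averaged 1.26 CPM in senescent control, 0.0827 CPM with the hairpin and 0.0137 CPM in growing control. What these markers reflect was not tested. These are bulk samples, so fewer cells of a kind and less RNA per cell cannot be told apart. Within their groups, growing control replicate 1, shTXNRD1 replicate 3 and DMSO replicate 1 were lowest in transcripts of high GC content. The rank correlation, across genes, of a library's deviation with GC content was -0.439, -0.481 and -0.215 in these 3 libraries, against 0.373 to 0.463 in the Tri-1 libraries and 0.0440 to 0.431 in the senescent control libraries.

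Per kilobase of the longest transcript, 3 of the 48 genes stood far above the others in every group. In senescent control cells the tetraspanin CD63 had 728 CPM per kb, the cysteine protease CTSB 727 and the saposin precursor PSAP 517, and the fourth gene in that order, CTSK, had 138. In growing control cells CD63 had 595 CPM per kb, CTSB 291 and PSAP 286, and CTSS was the lowest of the 48 at 0.532. TFEB was the lowest of the 48 in each of the 4 senescent groups, at 0.1698 CPM per kb in shTXNRD1 cells and 0.575 to 0.654 CPM per kb in the other 3. Together the 48 genes took 1.19% ± 0.0478 of all counts in shTXNRD1 cells, 1.25% ± 0.00766 with Tri-1, 1.17% ± 0.0254 with DMSO, 1.102% ± 0.0113 in senescent control and 0.788% ± 0.0213 in growing control (SD, n = 3 each). The senescent libraries lay between 1.09% and 1.26% and the growing libraries between 0.763% and 0.803%, with no overlap. Peptidases, CTSB foremost, made up the largest part of that share, 0.489% of counts in senescent control and 0.288% in growing control.

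**Figure D1:**
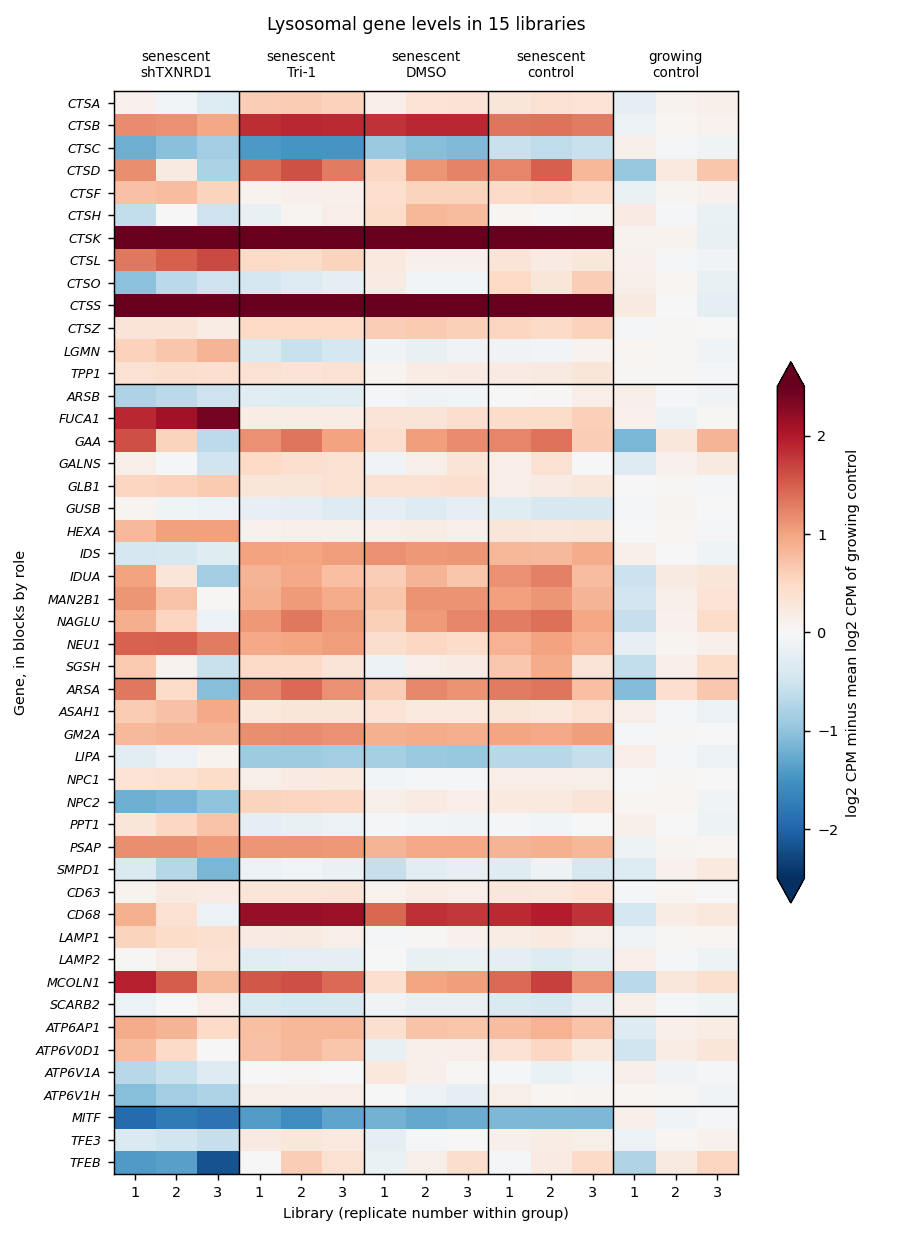
Level of each of the 48 genes in each of the 15 libraries, as log2 CPM minus the mean log2 CPM of the 3 growing control libraries; genes run down in blocks by role and the horizontal axis gives groups and replicates. CTSS and CTSK are far above the growing level in all 12 senescent libraries, MITF is below it in all 12, and GC-rich genes such as CTSD, GAA and ARSA vary between replicates of 1 group.

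Promoter sequence was at hand for 34 of the 48 genes, as 300 bases from 250 before to 50 after the RefSeq gene start (GRCh38.p14), and it is shown because CLEAR elements are the feature known to join these genes. The E-box CACGTG with GT before it and AC after it is a full CLEAR palindrome of 10 letters. It occurred in promoter sequence of 3 of the 34 genes (8.82%), GAA, GALNS and MCOLN1. Over the whole promoter collection it occurred for 0.421% of 27305 genes. The core TCACGTG, read on both strands, occurred for 10 of the 34 genes (29.4%), against 4.49% of the 27305. The E-box CACGTG alone occurred for 11 of 34 (32.4%), against 8.77%. Each longer motif contains the shorter, so these counts overlap, and a match describes the letters and is not evidence that a factor binds. The other 14 genes, ATP6V1A, NAGLU, ASAH1, SGSH, CTSK, CTSO, LAMP2, ATP6V1H, ARSA, LGMN, CTSB, PSAP, HEXA and CTSS, were not searched. The stretches before the gene start that hold the motif are given 5′ to 3′ on the gene's strand for 6 genes whose values recur below. Capitals mark CACGTG and those of the GT before it and the AC after it that are present. MCOLN1 lies at chr19:7522546-7522623 on the plus strand, GAA at chr17:80101468-80101580 plus, CTSA at chr20:45891256-45891334 plus, NEU1 at chr6:31862905-31862984 minus, CTSD at chr11:1763932-1764011 minus and LAMP1 at chr13:113297010-113297238 plus.
MCOLN1: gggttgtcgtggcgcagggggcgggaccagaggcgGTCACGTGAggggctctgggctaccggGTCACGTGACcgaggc
GAA: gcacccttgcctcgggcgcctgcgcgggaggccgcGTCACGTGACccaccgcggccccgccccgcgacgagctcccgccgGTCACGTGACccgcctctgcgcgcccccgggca
CTSA: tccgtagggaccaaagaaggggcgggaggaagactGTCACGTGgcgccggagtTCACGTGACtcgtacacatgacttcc
NEU1: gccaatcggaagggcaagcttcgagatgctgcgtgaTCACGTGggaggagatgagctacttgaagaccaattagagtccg
CTSD: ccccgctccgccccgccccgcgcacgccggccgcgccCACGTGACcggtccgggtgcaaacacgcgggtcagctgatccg
LAMP1: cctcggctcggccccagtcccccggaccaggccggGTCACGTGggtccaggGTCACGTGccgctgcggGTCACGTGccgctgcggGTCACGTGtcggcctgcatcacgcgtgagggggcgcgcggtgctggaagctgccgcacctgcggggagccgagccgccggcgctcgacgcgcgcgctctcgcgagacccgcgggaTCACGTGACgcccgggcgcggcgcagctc
Of the 10 genes with the TCACGTG core, 5 rose in senescent control over growing control (CTSA, CTSF, LAMP1, MCOLN1 and NEU1), and ARSB, ATP6V0D1, CTSD, GAA and GALNS were not called there. Of all 48 genes 27 rose in that comparison, and of all genes tested 27.4%.

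Senescent control cells were first set against growing control cells. Of the 48 genes, 27 rose and 6 fell, while over all genes tested 27.4% rose and 29.5% fell (33 genes called, beside 56.9% of all genes). The median log2 fold change of the 48 was 0.31, against 0.03 over all genes tested, and the libraries of the groups did not overlap in 36 of the 48, against 63.6% of all genes. Cathepsins S and K rose most, and the sialidase NEU1, the activator GM2A and the macrosialin CD68 were among the other rises; the transcription factor MITF, the acid lipase LIPA and the dipeptidyl peptidase CTSC fell.

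Among the 13 peptidases, 9 rose and 1 fell. CTSS, a cysteine protease that cuts elastin and the invariant chain of MHC class II, had 208, 195 and 213 CPM in the senescent control libraries, against 2.54, 2.18 and 1.83 CPM in the growing libraries. It went to 93.2-fold of its growing level (log2 6.54 ± 0.13, adjusted p = 2.18e-14), from 13321 counts in 3 senescent libraries and 156 in 3 growing libraries. CTSK, the collagen-cutting protease best known from osteoclasts, had 233, 224 and 245 CPM in senescent control and 22.4, 22.4 and 18.6 CPM in growing control, a change of 11.04-fold (log2 3.46 ± 0.09, adjusted p = 7.02e-13). For both genes every senescent library was far above every growing library. Leukocytes also express CTSS, and the 11 leukocyte markers summed to 2.5 to 2.88 CPM over the senescent control libraries and 0.833 to 1.74 CPM over the growing libraries, with no overlap. CSF1R, the receptor that macrophages need for survival, averaged 0.829 ± 0.2496 CPM in senescent control and 0.128 ± 0.0439 CPM in growing control (SD, n = 3 each). The mean of CD14, another marker of the list, went the other way. It was 0.361 ± 0.148 CPM in senescent control and 0.46 ± 0.427 CPM in growing control (SD, n = 3 each). AIF1 and CD3E were at 0 counts in both groups and TYROBP at 0 counts in senescent control. The part of these markers in the rise of CTSS was not tested. CTSB, the most abundant peptidase of the list per kilobase, had 2826, 2880.3 and 2746 CPM in senescent control, against 1019, 1169 and 1190.4 CPM in growing control (log2 1.32 ± 0.07, adjusted p = 7.61e-10). Smaller rises were found for CTSZ, a carboxypeptidase (0.53 ± 0.05), CTSF (0.48 ± 0.08), CTSO (0.47 ± 0.13), CTSA, the serine carboxypeptidase that stabilizes GLB1 and NEU1 (0.33 ± 0.11), CTSL (0.27 ± 0.08) and the tripeptidyl peptidase TPP1 (0.24 ± 0.05). With a correction for GC content the calls of CTSF (adjusted p = 0.2301), CTSZ (adjusted p = 0.0617) and CTSA (adjusted p = 0.945) ended. That of CTSA also ended without growing control replicate 1 (adjusted p = 0.0704) or senescent control replicate 2 (adjusted p = 0.0506).

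CTSC, which activates serine proteases of granules, was the only peptidase of the list that fell. It had 564, 534 and 562 CPM in senescent control and 922, 809.6 and 768 CPM in growing control (log2 -0.59 ± 0.09, adjusted p = 4.01e-05), with no overlap, and the fall was -0.34 with the GC correction. The aspartic protease CTSD had 194, 235 and 147 CPM in senescent control and 43.2, 98.5 and 134 CPM in growing control. Its growing libraries stood in the order of their GC deviations (-0.439, -0.113 and 0.00200), whose part in the result was not tested beyond the correction below, and the change of 1.06 ± 0.45 was not called (adjusted p = 0.06195). CTSD was called higher without growing control replicate 3 (1.44, adjusted p = 0.0311), with the GC correction (0.68, adjusted p = 0.0136) and with DESeq2 (adjusted p = 0.0373). The aminopeptidase CTSH (0.01 ± 0.16) and the asparaginyl endopeptidase LGMN (-0.02 ± 0.08) were not called.

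Of the 13 glycan hydrolases, 8 rose and 1 fell. GLB1, the beta-galactosidase behind the senescence stain, had 129, 134 and 141 CPM in senescent control, against 115, 118 and 114 CPM in growing control. The groups did not overlap, and the rise was 1.16-fold (log2 0.22 ± 0.05, adjusted p = 0.00233). NEU1, which removes sialic acid, had 104, 114 and 104 CPM in senescent control and 49.7, 60.01 and 62.4 CPM in growing control (log2 0.91 ± 0.08, adjusted p = 3.69e-07). IDS, the sulfatase that opens the breakdown of dermatan and heparan sulfate, rose by 0.86 ± 0.06 (adjusted p = 3.29e-08), and its reads may be shared with a related pseudogene. The remaining rises were NAGLU (1.16 ± 0.28), IDUA (1.03 ± 0.34), MAN2B1 (0.96 ± 0.25), FUCA1 (0.50 ± 0.13) and HEXA, the alpha subunit of beta-hexosaminidase (0.29 ± 0.06). The call of the iduronidase IDUA ended without growing control replicate 1 (adjusted p = 0.0762), senescent control replicate 1 (adjusted p = 0.0517) or senescent control replicate 2 (adjusted p = 0.0621). GUSB, the beta-glucuronidase, had 19.9, 18.7 and 18.8 CPM in senescent control and 23.8, 25.7 and 24.6 CPM in growing control, a fall of 0.37 on the log2 scale (SE 0.07, adjusted p = 0.000439); it has related pseudogenes that could take or give reads. The glycogen hydrolase GAA (0.90 ± 0.51) and the sulfatases GALNS (0.18 ± 0.17), ARSB (0.07 ± 0.07) and SGSH (0.60 ± 0.29) were not called.

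Of the 9 lipid genes, 5 rose and 1 fell. GM2A, the activator protein for ganglioside breakdown, had 128 ± 4.39 CPM in senescent control and 63.8 ± 1.3 CPM in growing control (SD, n = 3 each; log2 1.00 ± 0.05, adjusted p = 1.69e-10). PSAP, the precursor of the saposins, had 1472, 1525 and 1462 CPM in senescent control and 747, 863 and 851 CPM in growing control (log2 0.86 ± 0.06, adjusted p = 2.27e-08). For both, every senescent control library was above every growing library. The acid ceramidase ASAH1 (0.32 ± 0.09) and the sterol carriers NPC2 (0.27 ± 0.06) and NPC1 (0.17 ± 0.05) rose less. LIPA, which frees cholesterol and fatty acids from lipoprotein lipids, had 59.98, 59.5 and 64.96 CPM in senescent control and 109, 94.3 and 87.6 CPM in growing control, a fall of 0.66 on the log2 scale (SE 0.09, adjusted p = 2.43e-05). The sulfatase ARSA (0.98 ± 0.49), the sphingomyelinase SMPD1 (-0.30 ± 0.18) and the thioesterase PPT1 (-0.04 ± 0.09) were not called.

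All 6 membrane genes were called, 4 of them higher. CD68, a heavily glycosylated protein used as a macrophage marker, had 74.7, 79.5 and 71.4 CPM in senescent control, against 15.1, 23.3 and 24.5 CPM in growing control (log2 1.85 ± 0.23, adjusted p = 1.52e-05). The summed leukocyte markers, given with CTSS, were likewise higher in senescent control, and their part in the rise of CD68 was not tested. MCOLN1, the calcium channel whose promoter is shown above, had 25.1, 30.5 and 20.6 CPM in senescent control and 5.83, 11.3 and 12.4 CPM in growing control (log2 1.37 ± 0.31, adjusted p = 0.00236). LAMP1, the abundant lining protein, had 468, 485 and 458 CPM in senescent control and 389, 422 and 423 CPM in growing control, a change of 1.14-fold (log2 0.19 ± 0.06, adjusted p = 0.00939). CD63 rose by 0.29 ± 0.05. LAMP1's sister LAMP2 (-0.27 ± 0.09) and SCARB2, the receptor that carries glucocerebrosidase to lysosomes (-0.34 ± 0.08), fell. The call of LAMP2 ended with the GC correction (adjusted p = 0.793), without growing control replicate 1 (adjusted p = 0.0701) or without senescent control replicate 2 (adjusted p = 0.0525).

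Of the 4 pump subunits, the accessory subunit ATP6AP1 rose (0.77 ± 0.14, adjusted p = 0.000274), and ATP6V0D1 (0.34 ± 0.21), ATP6V1A (-0.09 ± 0.09) and ATP6V1H (0.09 ± 0.08) were not called. MITF, the factor of the group that also drives melanocyte and osteoclast genes, had 31.3, 31.1 and 31.5 CPM in senescent control and 74.7, 64.1 and 66.2 CPM in growing control. Senescent control libraries had 31.5 CPM or less and growing libraries 64.1 CPM or more (log2 -1.13 ± 0.08, adjusted p = 1.37e-08). TFE3 had 148, 154 and 148 CPM in senescent control and 121, 139 and 144 CPM in growing control and was not called (0.15 ± 0.08, adjusted p = 0.112). TFEB had 1.298, 1.53 and 1.85 CPM in senescent control and 0.793, 1.56 and 1.93 CPM in growing control, from 100 counts over the 3 libraries in senescent control and 99 in growing control, and its change of 0.13 ± 0.30 was not detectable at this depth (adjusted p = 0.725).

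**Figure D2:**
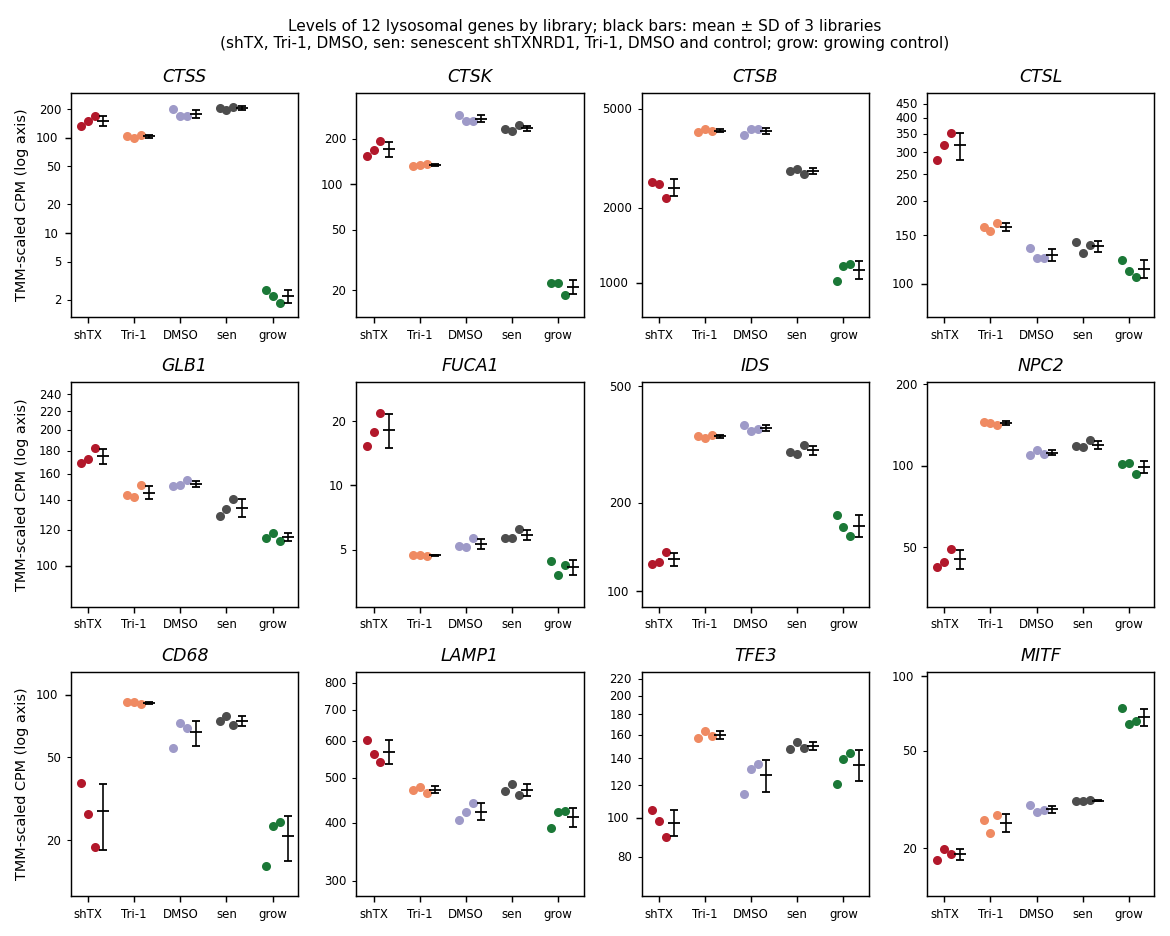
Levels of 12 lysosomal genes in CPM on log axes, with a point per library and bars for mean ± SD of 3 libraries; groups run from shTXNRD1 and Tri-1 through DMSO and senescent control to growing control. CTSS spans 1.83 to 213 CPM, and the shTXNRD1 libraries stand apart from every other senescent library for CTSB, CTSL, GLB1, FUCA1, IDS, NPC2, CD68, LAMP1, TFE3 and MITF.

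**Figure D3:**
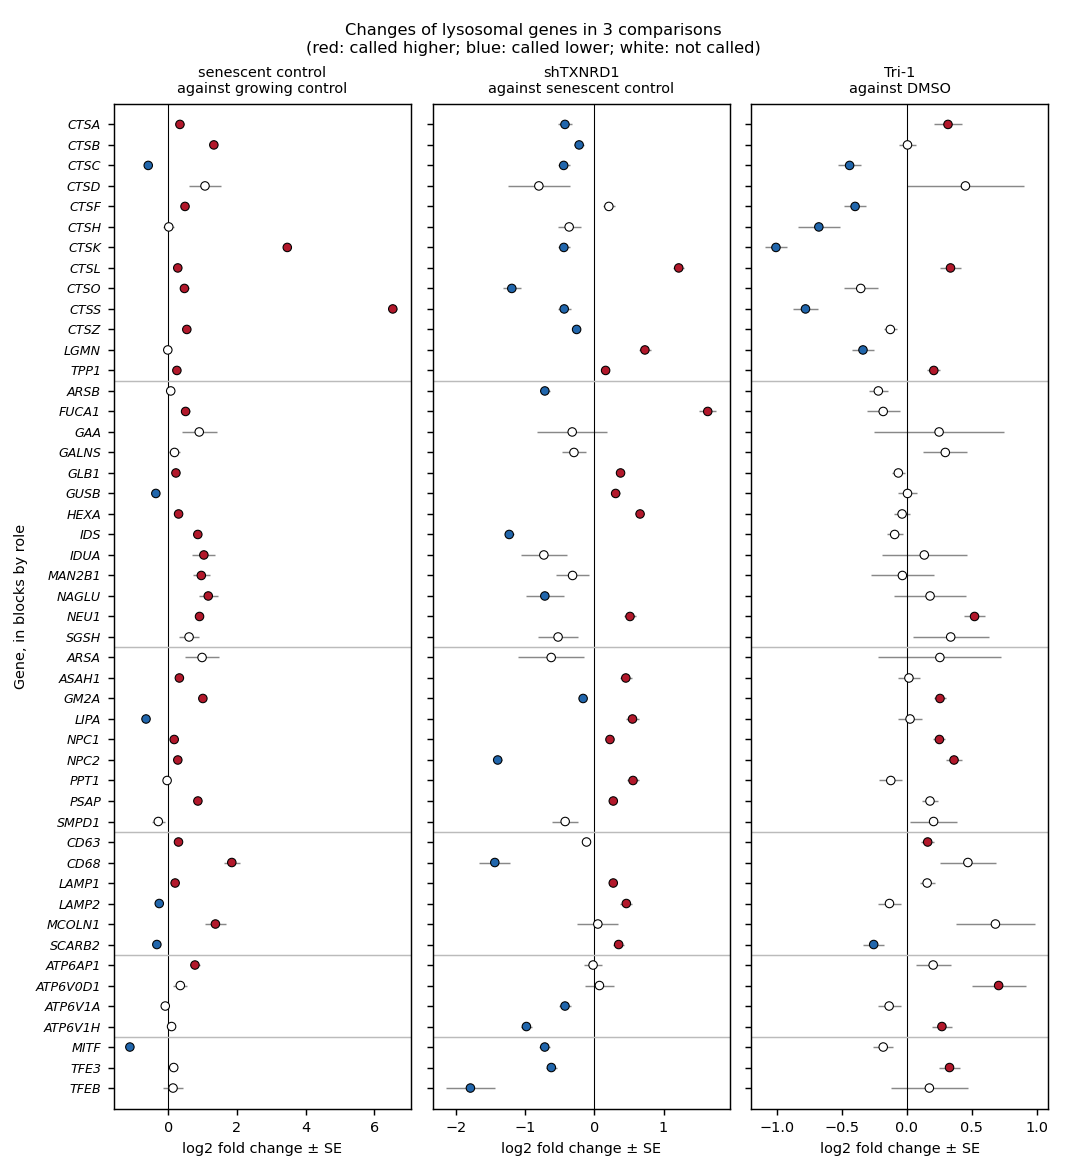
Log2 fold change ± SE of the 48 genes, in blocks by role, in senescent control against growing control (left), shTXNRD1 against senescent control (middle) and Tri-1 against DMSO (right), each panel with its own scale. Filled points are called, 33 at left, 34 in the middle and 18 at right, and the widest error bars belong to GAA, ARSA and CTSD.

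The hairpin comparison set shTXNRD1 cells against senescent control cells, which were also the senescent libraries of the comparison above. With the hairpin 16 of the 48 genes rose and 18 fell, against 25.8% and 24.8% of all genes tested (34 called, beside 50.7% of all genes). The median log2 fold change was -0.28 (-0.01 over all genes), and the groups did not overlap in 37 genes, against 55.4% of all genes. The fucosidase FUCA1 and the protease CTSL rose most. TFEB, at low counts, fell most, followed by CD68, the sterol carrier NPC2 and the sulfatase IDS, and all 3 transcription factors fell.

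Among peptidases 3 rose and 7 fell. CTSL, a broad cysteine protease, had 281, 320.2 and 353 CPM with the hairpin and 142, 129 and 138 CPM in senescent control, a change of 2.33-fold (log2 1.22 ± 0.08, adjusted p = 2.56e-08). LGMN, which processes cathepsins to their mature forms, had 44.7, 49.1 and 54.4 CPM with the hairpin and 28.5, 28.7 and 32.2 CPM in senescent control (log2 0.73 ± 0.08, adjusted p = 5.5e-06). TPP1 rose slightly (0.16 ± 0.05), and its call ended without senescent control replicate 1 (adjusted p = 0.07403) or 2 (adjusted p = 0.0678) or shTXNRD1 replicate 2 (adjusted p = 0.0625). CTSO, a little-studied cysteine protease, had 12.6, 16.2 and 18.04 CPM with the hairpin and 36.3, 31.9 and 39.3 CPM in senescent control (log2 -1.20 ± 0.13, adjusted p = 4.6e-06). CTSS had 134, 152 and 169 CPM with the hairpin and 208, 195 and 213 CPM in senescent control (log2 -0.44 ± 0.09, adjusted p = 0.00115), and CTSK 154, 169.7 and 193 CPM with the hairpin and 233, 224 and 245 CPM in senescent control (log2 -0.44 ± 0.08, adjusted p = 0.000526). Both genes were below every senescent control library and many times above the growing level of 2.54 CPM or less for CTSS and 22.4 CPM or less for CTSK. CTSC (-0.45 ± 0.09), CTSA (-0.43 ± 0.11), CTSZ (-0.26 ± 0.05) and CTSB (-0.22 ± 0.07) fell too. The calls of CTSA (adjusted p = 0.585) and CTSZ (adjusted p = 0.965) ended with the GC correction, and that of CTSB without shTXNRD1 replicate 3 (adjusted p = 0.0522). CTSF (0.21 ± 0.08, adjusted p = 0.0515) and CTSH (-0.37 ± 0.17) were not called. CTSD had 185, 97.1 and 47.6 CPM with the hairpin and 194, 235 and 147 CPM in senescent control. Its change of -0.81 ± 0.45 was not called, but was -1.42 without shTXNRD1 replicate 1 (adjusted p = 0.0191).

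Of the glycan hydrolases 5 rose and 3 fell. FUCA1, which removes fucose, had 15.3, 17.8 and 21.8 CPM with the hairpin and 5.68, 5.69 and 6.25 CPM in senescent control, the largest rise of the 48 (log2 1.64 ± 0.12, adjusted p = 6.9e-08). HEXA had 192, 225 and 224 CPM with the hairpin and 135, 134 and 136 CPM in senescent control (log2 0.66 ± 0.06, adjusted p = 6.01e-07). GLB1 had 169, 173 and 182 CPM with the hairpin and 129, 134 and 141 CPM in senescent control, so that its level was highest in shTXNRD1 cells of the 5 groups (log2 0.38 ± 0.05, adjusted p = 2.86e-05). NEU1 (0.51 ± 0.08) and GUSB (0.31 ± 0.07) rose as well. IDS had 124, 126 and 136 CPM with the hairpin and 298, 294 and 315 CPM in senescent control, with every hairpin library also below the growing level of 154 CPM or more (log2 -1.23 ± 0.06, adjusted p = 1.67e-09). ARSB, another sulfatase of glycosaminoglycans, fell by 0.72 on the log2 scale (SE 0.07, adjusted p = 2.11e-06). NAGLU (-0.72 ± 0.28) fell with an adjusted p of 0.0468, and its call ended without senescent control replicate 1 (adjusted p = 0.105) or 2 (adjusted p = 0.134) or shTXNRD1 replicate 2 (adjusted p = 0.0942) or 3 (adjusted p = 0.157). GAA, GALNS, IDUA, MAN2B1 and SGSH were not called, with log2 fold changes between -0.73 and -0.30.

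Of the lipid genes 5 rose and 2 fell. PPT1 (0.56 ± 0.09), LIPA (0.55 ± 0.09), ASAH1 (0.45 ± 0.09), PSAP (0.27 ± 0.06) and NPC1 (0.22 ± 0.05) rose. NPC1 and NPC2 hand cholesterol on to each other in the same export route, and here they moved apart. NPC1, the membrane protein, had 141, 146 and 153 CPM with the hairpin and 126, 126 and 124 CPM in senescent control. NPC2, the soluble carrier, had 42.3, 44.1 and 49.4 CPM with the hairpin and 118, 117 and 124 CPM in senescent control, a fall of 2.64-fold (log2 -1.40 ± 0.06, adjusted p = 4.38e-10). Every hairpin library had 49.4 CPM or less of NPC2, and every other library of the series 93.3 CPM or more. GM2A fell slightly (-0.16 ± 0.05), and ARSA (-0.63 ± 0.48) and SMPD1 (-0.42 ± 0.18) were not called.

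Of the membrane genes 3 rose, LAMP2 (0.46 ± 0.09), SCARB2 (0.35 ± 0.08) and LAMP1, which had 604, 562 and 539 CPM with the hairpin and 468, 485 and 458 CPM in senescent control (log2 0.27 ± 0.06, adjusted p = 0.00111). CD68 had 37.7, 26.7 and 18.5 CPM with the hairpin and 74.7, 79.5 and 71.4 CPM in senescent control (log2 -1.44 ± 0.22, adjusted p = 0.000149). The hairpin libraries overlapped the growing libraries, which held 15.1, 23.3 and 24.5 CPM. The leukocyte markers summed to 1.05 to 1.599 CPM with the hairpin and 2.5 to 2.88 CPM in senescent control, and their part in the fall of CD68 was not tested. CD63 (-0.12 ± 0.05) and MCOLN1 (0.05 ± 0.30) were not called.

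Of the pump subunits ATP6V1H, a regulatory subunit, had 30.2, 34.6 and 36.97 CPM with the hairpin and 69.6, 65.6 and 66.4 CPM in senescent control (log2 -0.99 ± 0.08, adjusted p = 1.57e-07). The catalytic subunit ATP6V1A also fell (-0.43 ± 0.09), and ATP6V0D1 and ATP6AP1 were not called. TFE3 had 104, 97.8 and 89.6 CPM with the hairpin and 148, 154 and 148 CPM in senescent control (log2 -0.62 ± 0.08, adjusted p = 1.52e-05), a change that was -0.29 with the GC correction. MITF had 17.9, 19.95 and 19.1 CPM with the hairpin and 31.3, 31.1 and 31.5 CPM in senescent control (log2 -0.72 ± 0.08, adjusted p = 3.29e-06). TFEB had 0.4999, 0.525 and 0.297 CPM with the hairpin and 1.298, 1.53 and 1.85 CPM in senescent control (log2 -1.80 ± 0.35, adjusted p = 0.000689), from 28 counts with the hairpin and 100 in senescent control over 3 libraries each. For all 3 factors every hairpin library was below every other library of the series.

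Tri-1 was set against its solvent DMSO. Of the 48 genes 11 rose and 7 fell, against 7.64% and 12.2% of all genes tested (18 called, beside 19.9% of all genes). The median log2 fold change was 0.15 (0.01 over all genes), and the groups did not overlap in 35 genes, against 48.7% of all genes. Peptidases made up 6 of the 7 falls, led by CTSK, CTSS and CTSH. The rises included NEU1, the sterol carriers NPC1 and NPC2, and 2 pump subunits.

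CTSK had 133, 135 and 137 CPM with Tri-1 and 288, 263 and 263 CPM with DMSO, a fall of 2.01-fold (log2 -1.01 ± 0.08, adjusted p = 1.99e-06). CTSS had 105, 100.5 and 108 CPM with Tri-1 and 198, 168 and 171 CPM with DMSO (log2 -0.78 ± 0.09, adjusted p = 4.95e-05). No Tri-1 library reached the lowest DMSO library for either gene. CTSH, whose level is low, had 4.17, 4.94 and 5.32 CPM with Tri-1 and 6.53, 8.38 and 8.19 CPM with DMSO (log2 -0.68 ± 0.16, adjusted p = 0.00911), and 4.87, 4.696 and 4.8 CPM in senescent control. CTSC had 306, 298 and 298 CPM with Tri-1 and 438, 397 and 387 CPM with DMSO (log2 -0.44 ± 0.09, adjusted p = 0.00259). The other falls among peptidases were CTSF (-0.40 ± 0.08) and LGMN (-0.34 ± 0.08), whose call ended without Tri-1 replicate 2 (adjusted p = 0.0568). CTSL had 160.4, 156 and 166 CPM with Tri-1 and 134, 123 and 124 CPM with DMSO and rose (log2 0.34 ± 0.08, adjusted p = 0.00896). TPP1 (0.21 ± 0.05) and CTSA (0.32 ± 0.11) rose by less. The call of TPP1 ended without DMSO replicate 1 (adjusted p = 0.0621), and that of CTSA when any 1 of the 6 libraries was left out (adjusted p from 0.0678 to 0.183). CTSB, CTSD, CTSO and CTSZ were not called; CTSB had 4036, 4149 and 4094 CPM with Tri-1 and 3938, 4146 and 4143 CPM with DMSO (log2 0.01 ± 0.07).

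NEU1 alone was called among the 13 glycan hydrolases. It had 110.3, 113 and 118 CPM with Tri-1 and 77.3, 81.9 and 78.4 CPM with DMSO (log2 0.52 ± 0.08, adjusted p = 0.000508), and 104, 114 and 104 CPM in senescent control, so the DMSO libraries were the low ones and the Tri-1 libraries overlapped senescent control. GLB1 had 143, 142 and 151 CPM with Tri-1 and 149.99, 151 and 155 CPM with DMSO and was not called (-0.06 ± 0.05). Of the lipid genes, NPC2 rose, with 145, 144 and 141 CPM with Tri-1 and 109.6, 114 and 111 CPM with DMSO (log2 0.36 ± 0.06, adjusted p = 0.000791). GM2A (0.26 ± 0.05) and NPC1 (0.25 ± 0.05) also rose, and none of the 9 fell.

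Among the membrane genes CD63 rose (0.16 ± 0.05) and SCARB2 fell (-0.25 ± 0.08). Both calls ended when any 1 of the 6 libraries was left out, with adjusted p from 0.0547 to 0.1503 for CD63 and from 0.0711 to 0.133 for SCARB2. LAMP1 (0.16 ± 0.06, adjusted p = 0.0671), LAMP2, CD68 and MCOLN1 were not called. The pump subunit ATP6V0D1, whose promoter held the TCACGTG core, had 137, 143 and 133 CPM with Tri-1 and 72.6, 89.2 and 91.6 CPM with DMSO, the largest rise of the 48 (log2 0.71 ± 0.21, adjusted p = 0.0312). Its libraries did not overlap, but the call ended when any 1 of the 6 was left out, with adjusted p up to 0.122 without DMSO replicate 1. ATP6V1H rose (0.27 ± 0.08), and its call ended without DMSO replicate 2 or 3 or Tri-1 replicate 1 or 3 (adjusted p from 0.0634 to 0.102). TFE3 had 157, 164 and 159 CPM with Tri-1 and 114, 131 and 136 CPM with DMSO (log2 0.33 ± 0.08, adjusted p = 0.00914), and was not called with the GC correction (0.18, adjusted p = 0.205). MITF (-0.18 ± 0.08) and TFEB (0.17 ± 0.30) were not called.

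The hairpin and the inhibitor were then compared directly, as the shTXNRD1 effect minus the Tri-1 effect, each against its own senescent reference. This difference was called higher for 14 and lower for 12 of the 48 genes, against 22.1% and 19.5% of all genes tested (26 called, beside 41.7% of all genes), with a median of -0.25 (-0.03 over all genes). CTSL, NEU1, NPC1 and TPP1 rose under both treatments, and CTSC, CTSK and CTSS fell under both. For NEU1 and NPC1 every DMSO library was below every senescent control library, and the Tri-1 libraries overlapped senescent control. NPC1 had 124, 129 and 132 CPM with Tri-1 and 126, 126 and 124 CPM in senescent control. LGMN and SCARB2 rose with the hairpin and fell with Tri-1, and ATP6V1H, CTSA, GM2A, NPC2 and TFE3 fell with the hairpin and rose with Tri-1. For SCARB2 and ATP6V1H the Tri-1 libraries overlapped senescent control, and the DMSO libraries did not. A further 10 genes rose and 10 fell with the hairpin alone, and whether those effects differed is given by the difference and not by the calls. These joint counts were not made over all genes tested, of which 50.7% were called with the hairpin and 19.9% with Tri-1. They are therefore not read as particular to the 48.

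The difference was largest upward for FUCA1 (1.82 ± 0.17, adjusted p = 2.24e-06), which had 4.73, 4.71 and 4.69 CPM with Tri-1 and 5.18, 5.17 and 5.65 CPM with DMSO. LGMN (1.07 ± 0.12), CTSL (0.88 ± 0.11), HEXA (0.70 ± 0.08) and PPT1 (0.68 ± 0.13) came next in that direction, with no alternative ending the call, and GLB1 was at 0.44 ± 0.07. LGMN had 23.4, 20.5 and 22.3 CPM with Tri-1 and 28.4, 26.6 and 28.5 CPM with DMSO, with no overlap. HEXA had 119, 121 and 121 CPM with Tri-1 and 124, 126 and 121 CPM with DMSO. CTSL rose under both treatments and more with the hairpin. Downward, among the genes where it was called, it was largest for TFEB (-1.97 ± 0.46), CD68 (-1.91 ± 0.31), NPC2 (-1.77 ± 0.09), ATP6V1H (-1.26 ± 0.11), IDS (-1.14 ± 0.09) and TFE3 (-0.95 ± 0.11). CD68 had 92.1, 92.3 and 90.2 CPM with Tri-1 and 55.7, 72.8 and 69.6 CPM with DMSO, ATP6V1H had 69.4, 68.9 and 70.3 CPM with Tri-1 and 62.6, 56.6 and 53.8 CPM with DMSO, and IDS had 337, 333 and 342 CPM with Tri-1 and 368, 352 and 358 CPM with DMSO. Among these 3 genes ATP6V1H was the one called with Tri-1. With the GC correction the difference for TFE3 was -0.47 (adjusted p = 0.0172). For NEU1 (-0.01 ± 0.12), CTSC (-0.01 ± 0.12), NPC1 (-0.03 ± 0.07) and TPP1 (-0.05 ± 0.07) no difference was called, which does not show that the effects were equal. CTSK fell by more with Tri-1 than with the hairpin (difference 0.56 ± 0.12, adjusted p = 0.00184). The same was called for CTSS (0.34 ± 0.13, adjusted p = 0.0496), but that call ended in 16 alternative settings, and the difference was 0.00 with the GC correction (adjusted p = 0.957) and 0.25 without shTXNRD1 replicate 3 (adjusted p = 0.0973). The difference for CTSA (-0.74 ± 0.15) was not called with the GC correction (adjusted p = 0.195).

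**Figure D4:**
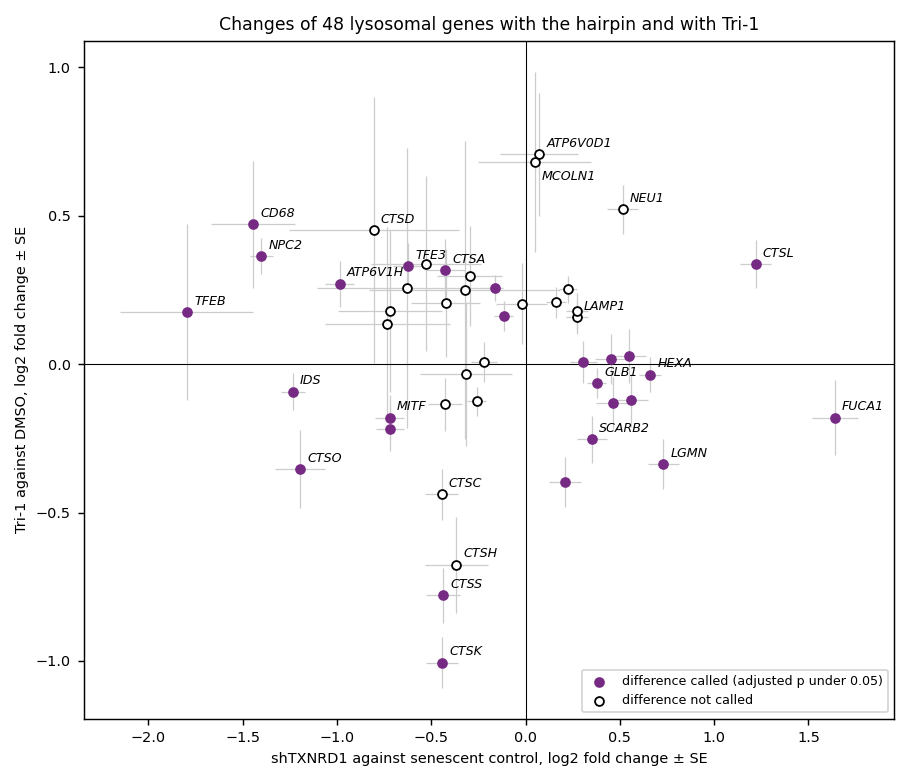
Log2 fold change ± SE of the 48 genes with the hairpin (horizontal axis, shTXNRD1 against senescent control) and with Tri-1 (vertical axis, Tri-1 against DMSO), filled where the difference of the effects was called. FUCA1 and CTSL lie far right, NPC2, CD68, TFEB and ATP6V1H at upper left, and CTSK and CTSS low.

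DMSO and senescent control cells, both senescent and without hairpin or Tri-1, were also compared. In DMSO cells against senescent control 4 of the 48 genes rose and 4 fell (8.33% each), against 8.36% and 7.87% of all genes. The 8 called made up 16.7% of the list, near the 16.2% of all genes. The groups did not overlap in 28 genes, against 39.7% of all genes. CTSB had 3938, 4146 and 4143 CPM with DMSO and 2826, 2880.3 and 2746 CPM in senescent control (log2 0.53 ± 0.07, adjusted p = 0.000115). CTSH had 6.53, 8.38 and 8.19 CPM with DMSO and 4.87, 4.696 and 4.8 CPM in senescent control (log2 0.69 ± 0.16), and neither gene's groups overlapped. IDS, with 368, 352 and 358 CPM with DMSO and 298, 294 and 315 CPM in senescent control (log2 0.25 ± 0.06), and GLB1, with 149.99, 151 and 155 CPM with DMSO and 129, 134 and 141 CPM in senescent control (log2 0.18 ± 0.05), rose as well. The call of GLB1 ended without the filter (adjusted p = 0.191), without senescent control replicate 1 or 2, or without any 1 of the DMSO libraries (adjusted p from 0.0632 to 0.1197), and that of IDS without DMSO replicate 1 (adjusted p = 0.0528). CTSO had 29.7, 24.6 and 24.4 CPM with DMSO and 36.3, 31.9 and 39.3 CPM in senescent control (log2 -0.45 ± 0.13), and CTSC had 438, 397 and 387 CPM with DMSO and 564, 534 and 562 CPM in senescent control (log2 -0.44 ± 0.09). NEU1 had 77.3, 81.9 and 78.4 CPM with DMSO and 104, 114 and 104 CPM in senescent control (log2 -0.44 ± 0.08), and NPC1 had 107, 108 and 109 CPM with DMSO and 126, 126 and 124 CPM in senescent control (log2 -0.22 ± 0.05). All 4 fell. The call of NPC1 ended without the filter (adjusted p = 0.0773), and that of CTSO with the replicate block (adjusted p = 0.0579) and without senescent control replicate 1 or 3 or DMSO replicate 2 or 3 (adjusted p from 0.078 to 0.12).

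Genes that were not called in any of the senescence, hairpin and Tri-1 comparisons were ARSA, CTSD, GAA, GALNS, SGSH and SMPD1. The GC content of their longest transcripts was 57.7% to 66.0%, above the median of 47.7% over all genes tested. In the senescence comparison the median SE was 0.17 for the 15 genes not called and 0.08 for the 27 that rose, and the median GC contents were 57.7% and 51.6%. The part of GC-related spread in these missing calls was not tested beyond the correction, with which 29 genes rose and 6 fell in that comparison. Without the 3 libraries that were lowest in GC-rich transcripts, an alternative chosen after seeing the data, 28 of the 48 rose and 7 fell in senescent control over growing control, and 18 rose and 19 fell with the hairpin. In the same setting 15 rose and 9 fell with Tri-1 over DMSO, and 6 rose and 10 fell with DMSO over senescent control.

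**Figure D5:**
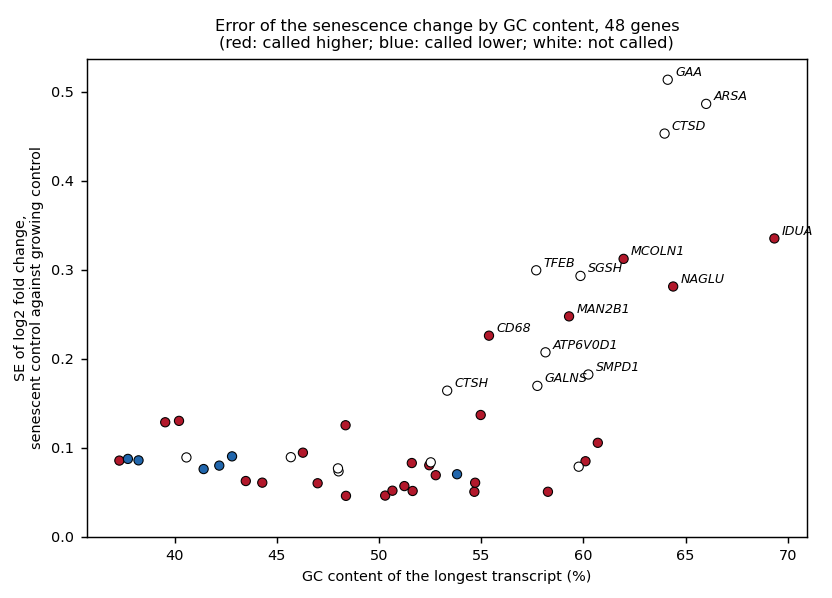
SE of the log2 fold change of senescent control against growing control (vertical axis) by GC content of the longest transcript (horizontal axis, %) for the 48 genes. GAA, ARSA and CTSD, at 64.0% to 66.0% GC, have the 3 largest SEs, of 0.45 to 0.51, and genes of low GC content have small ones.

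Other genes of the pathway, taken as lists of 5 to 26 tested genes, were set beside the 48, with the 2 genes of smallest p named in most lists. Over all genes tested, 27.4% rose and 29.5% fell in senescence, 25.8% rose and 24.8% fell with the hairpin, and 7.64% rose and 12.2% fell with Tri-1. Of 12 further pump subunits, 9 rose and 1 fell in senescent control over growing control, with ATP6V0A1 at 1.19 ± 0.05 and ATP6V1G1 at 0.78 ± 0.06. With the hairpin 8 of the 12 rose and 1 fell, with ATP6V0E1 at 0.49 ± 0.07 and ATP6V0A1 at 0.48 ± 0.05, and with Tri-1 7 rose and none fell, with ATP6V0A1 at 0.23 ± 0.05 and ATP6V1E1 at 0.32 ± 0.08. ATP6V1A and ATP6V1H, described above, fell with the hairpin while 8 subunits of the same pump rose. Of 26 other lysosomal hydrolases and membrane genes tested, 12 rose and 4 fell in senescence, with the sulfatase ARSG at 1.96 ± 0.07 and the cystine exporter CTNS at 1.01 ± 0.09. With the hairpin 13 rose and 5 fell, among them LAPTM4B (0.79 ± 0.07), and with Tri-1 2 rose and 4 fell, with CTNS at 0.54 ± 0.09 and LAPTM4A at -0.28 ± 0.07.

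Of 16 genes that sort hydrolases to lysosomes, 5 rose and 4 fell in senescence, with the mannose 6-phosphate receptor IGF2R at 0.50 ± 0.04 and the sorting receptor SORT1 at -0.63 ± 0.08. With the hairpin 9 rose and 1 fell, and the other mannose 6-phosphate receptor, M6PR, had 374 ± 41.8 CPM with the hairpin and 194 ± 4.42 CPM in senescent control (SD, n = 3 each; log2 0.95 ± 0.08, adjusted p = 2.03e-07). With Tri-1 2 rose and 1 fell, SORT1 at -0.75 ± 0.08 and the adaptor GGA3 at 0.31 ± 0.07. The share called among the 16 was 56.25% in senescence and 18.75% with Tri-1, near the 56.9% and 19.9% of all genes, and 62.5% with the hairpin, against 50.7%. Among 25 autophagy genes 12 rose and 6 fell in senescence, with ATG7 at 0.79 ± 0.07 and ATG13 at 0.57 ± 0.05. With the hairpin 8 rose and 4 fell, with ATG14 at 0.70 ± 0.06 and WIPI1 at -0.76 ± 0.08, and with Tri-1 2 rose and 3 fell, with GABARAPL1 at -0.57 ± 0.10 and the cargo receptor SQSTM1 at 0.73 ± 0.19. The share called among the 25 was 72% in senescence, against 56.9% of all genes, and was near that of all genes with the hairpin (48%, against 50.7%) and with Tri-1 (20%, against 19.9%). SQSTM1 had 519 ± 17.5 CPM with Tri-1, 313 ± 41.6 CPM with DMSO and 706 ± 67.6 CPM in senescent control (SD, n = 3 each), and its Tri-1 call ended without DMSO replicate 1 (adjusted p = 0.0702) or Tri-1 replicate 2 (adjusted p = 0.0535).

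Of 20 genes of mTORC1 and nutrient sensing at the lysosome, 6 rose and 6 fell in senescence, 60% of the list in all, against 56.9% of all genes. Among the rises were the Rag GTPase RRAGD and FLCN (0.94 ± 0.09), which acts on Rag GTPases and so on TFEB and TFE3. RRAGD had 1.31 ± 0.183 CPM in senescent control and 0.114 ± 0.0634 CPM in growing control (SD, n = 3 each). It too passed the filter on low counts only through senescent libraries, so its rise is partly set by the filter. With the hairpin 10 rose and 2 fell, with TSC1 at 0.84 ± 0.06 and MTOR at 0.42 ± 0.05, and with Tri-1 6 rose and none fell, with FLCN at 0.62 ± 0.09 and LAMTOR1 at 0.45 ± 0.09. Those called made up 60% of the list with the hairpin, against 50.7% of all genes, and 30% with Tri-1, against 19.9%. FLCN had 46.4 ± 1.85 CPM with Tri-1, 30.1 ± 1.58 CPM with DMSO and 43.7 ± 2.06 CPM in senescent control (SD, n = 3 each), so DMSO was the low group. Of 7 listed cystatins 5 were tested. All 5, inhibitors of cysteine cathepsins, rose in senescence and fell with the hairpin, while with Tri-1 1 rose and 3 fell. CST1 and CST4, absent or nearly absent in growing cells, passed the filter on low counts only through senescent libraries. The count of rises in senescence is therefore partly set by the filter. CST1 had 66.99 ± 1.94 CPM in senescent control and no count in any growing library, and it had 27.7 ± 3.82 CPM with the hairpin (log2 -1.27 ± 0.10 against senescent control, adjusted p = 5.48e-07). CST4 had 40.5 ± 2.02 CPM in senescent control and 0.0401 ± 0.0397 CPM in growing control, and 11.7 ± 2.495 CPM with the hairpin (log2 -1.80 ± 0.15 against senescent control, adjusted p = 1.89e-07). With Tri-1 CST1 was at 66.5 ± 2.43 CPM, against 148 ± 14.8 CPM with DMSO (log2 -1.15 ± 0.10), and CSTB at 108 ± 2.92 CPM, against 74.2 ± 1.68 CPM with DMSO (log2 0.54 ± 0.06). The Tri-1 level of CST1 was near the 66.99 CPM of senescent control, so for CST1 DMSO was the high group. In DMSO against senescent control 3 of the 5 cystatins rose and 1 fell, against 8.36% and 7.87% of all genes. CST1 and CST4 are close paralogs, and how the counting divided reads between them is not given in the sources used here.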

How the data were processed

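Libraries of total RNA from the 15 samples were sequenced from both ends with 75-bp reads (NextSeq instrument), per the labels' protocols. The authors deposited whole-number counts per Ensembl gene and library, not scaled. RSEM 1.2.3, DESeq2 and the builds hg19 and mm10 are named in the submitters' processing notes without their roles. If RSEM made the counts, they are rounded estimates. Aligner, annotation, strand use and the treatment of shared reads: not given in the sources used here. Of 57736 genes, 52300 received a symbol by identifier, and every column was a sample of the series.

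Counts were scaled by TMM, filtered by group (filterByExpr, 15994 genes left) and fitted in 1 model over all 15 libraries with edgeR 4.0.16 (R 4.3.3; robust quasi-likelihood, two-sided, 10 residual degrees of freedom). P-values were adjusted by Benjamini-Hochberg over all genes tested in each of 5 comparisons, with a threshold of 0.05. The fit was first tested on simulated data. Errors beside log2 changes are approximate SEs, the absolute log2 change divided by the square root of the quasi-likelihood F statistic. Totals were 18033076 to 28909046 counts (median 21156213). A gene at 1 CPM thus rests on few reads. GC content and length came from the longest GENCODE v29 transcript, and GC content was known for 96.5% of genes tested. Promoter sequences are RefSeq's, GRCh38.p14.

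The 48 genes, the pathway and marker lists and the tests were chosen with earlier results of these data known. Lists are described by counts and medians. Named with values of every library are, in each comparison, the called members with the 4 largest rises and the 4 largest falls among genes averaging 1 or more in log2 CPM, and a panel of GLB1, LAMP1, CTSD, CTSL, TFEB, TFE3 and MITF; other members are given by their changes. In each pathway list the 2 genes with the smallest p in a comparison are named, apart from 1 that is not reported here. The exact permutation test of a single gene with 3 libraries against 3 cannot go below p = 0.1 (two-sided), so the model's shared spread was used. Alternatives were DESeq2 1.42.0, limma-voom (limma 3.58.1), RLE and upper-quartile scaling, no filter, a mean CPM of at least 5, genes above 1% of counts left out, a replicate block, the compared groups alone, a GC correction and each library left out. No pair of libraries had counts that differed by less than sampling noise. Replicate numbers were not used to pair the libraries, apart from the replicate block.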

Additional observations from a re-analysis of the deposited data

Results flagged for a closer look

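For 7 genes the hairpin and Tri-1 were called in opposite directions. The difference between their effects, tested in the same edgeR model, was called as well for each of the 7. This joint pattern was not counted over all genes tested, of which 50.7% were called with the hairpin and 19.9% with Tri-1. The 7 are therefore not read as particular to the listed lysosomal genes. The difference (shTXNRD1 effect minus Tri-1 effect, log2, adjusted by Benjamini-Hochberg) was -1.77 for NPC2, the soluble sterol carrier, and -1.26 for the pump subunit ATP6V1H. It was -0.95 for the transcription factor TFE3, -0.74 for the carboxypeptidase CTSA and -0.42 for the lipid activator GM2A. It was 1.07 for the asparaginyl endopeptidase LGMN and 0.60 for the receptor SCARB2. In 3 libraries of 3 the shTXNRD1 level lay on its side of every senescent control library, and the Tri-1 level on the other side of every DMSO library, for each of the 7. The 7 were picked by their calls in these same libraries, so this separation is no further support. Over all genes tested the groups did not overlap in 55.4% with the hairpin and 48.7% with Tri-1. Set beside senescent control, the Tri-1 libraries overlapped it for 2 of the 7. ATP6V1H had 68.9 to 70.3 CPM with Tri-1, 65.6 to 69.6 CPM in senescent control and 53.8 to 62.6 CPM with DMSO. SCARB2 had 434 to 453 CPM with Tri-1, 444 to 493 CPM in senescent control and 517 to 550 CPM with DMSO. For both genes DMSO was the group that stood apart. The difference for CTSA was -0.21 with the GC correction (adjusted p = 0.195). It was -0.47 for TFE3 and 0.33 for SCARB2 with that correction, and both stayed called. The Tri-1 calls of CTSA, SCARB2, ATP6V1H and LGMN ended when single libraries were left out, and that of TFE3 with the GC correction, as given above. No group of 3 libraries was tested for outlying samples, since 3 are too few.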

How the results depend on the processing

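The counts of genes called in the senescence and hairpin comparisons stayed within 1.5 times their values in every setting. In senescent control over growing control 21 of the 27 rises and 5 of the 6 falls were called in every setting, as were 15 of 16 rises and 13 of 18 falls with the hairpin, 5 of 11 rises and 5 of 7 falls with Tri-1, and 11 of 14 and 10 of 12 in the difference. For Tri-1 over DMSO, 7 genes instead of 11 rose without the filter and 7 to 8 with a library left out. Falls numbered 11 instead of 7 at a mean CPM of at least 5, 13 with the compared groups alone and 5 to 6 with a library left out. In the difference, 12 to 20 genes were lower with a library left out, the 20 without shTXNRD1 replicate 1. In DMSO over senescent control, rises numbered 8 instead of 4 with the compared groups alone, 9 with the GC correction and 2 to 4 with a library left out, 2 without DMSO replicate 1. Falls there numbered 13 instead of 4 with the GC correction, 10 without the 3 libraries lowest in GC-rich transcripts (chosen after seeing the data) and 3 to 5 with a library left out. The cause of these shifts was not tested.

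With the GC correction CTSA in senescence changed sign (-0.00787), as did CTSZ with the hairpin (0.00712), neither called. ATP6V1A in senescence also changed sign, from a negative change that was not called, and became called higher (0.13). CDKN1A in the difference changed sign as well, from -0.21, not called, to 0.16, called higher. That correction also reduced called changes by more than 1.5 times, to 0.72 for NAGLU, 0.40 for IDUA, 0.16 for CD63 and -0.15 for SCARB2 in senescence, and to 0.21 for ASAH1, 0.22 for LAMP2 and 0.17 for SCARB2 with the hairpin. It enlarged those of ASAH1 (0.58) and NPC2 (0.41) in senescence and of CTSC with the hairpin (-0.68). In the difference it ended the calls of ASAH1 (0.05) and CD63 (-0.10), reduced LAMP2 to 0.21 and LIPA to 0.27, and enlarged CTSF to 1.11 and MITF to -0.82. Without the filter, NPC1 (adjusted p = 0.168) and LAMP1 (adjusted p = 0.0976) were not called in senescence. With the compared groups alone, the hairpin calls of CTSA (adjusted p = 0.0805), CTSB (adjusted p = 0.198), CTSZ (adjusted p = 0.0673) and GM2A (adjusted p = 0.113) ended. In the difference the call of GUSB ended in 8 settings, such as without shTXNRD1 replicate 1 (adjusted p = 0.0614). No scaling moved the median change of all genes by over 0.1. Deviations of same-numbered libraries had correlations of -0.238 to 0.287, without a common sign. The 0.287 was for replicate 3 of shTXNRD1 and senescent control, each the lowest of its group in GC correlation (-0.481 and 0.0440). With the replicate block 27 genes rose and 6 fell in senescence, 16 and 17 with the hairpin, 9 and 6 with Tri-1, 13 and 12 in the difference, and 4 and 3 with DMSO. Depth limits TFEB, which had 28 to 111 counts a group.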
